A study of Mus musculus with 16 samples.

Results

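Spen, Rbm15 and Rbm15b encode the mouse proteins in which a carboxy-terminal SPOC (Spen paralogue and orthologue C-terminal) domain follows several RNA recognition motifs. The 3 genes were chosen by name among the 55421 genes counted, and all 3 passed the filter on low counts that left 18150 genes to test. They were followed through total and allele-specific read counts, with the question whether the 2 paralogues change when Spen is deleted.

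SPEN binds the A-repeat of Xist, the RNA that coats and silences an X chromosome in female cells, and through its SPOC domain it recruits corepressors that carry the histone deacetylase HDAC3. RBM15 and RBM15B are RNA-binding adaptors of the m6A methyltransferase complex, bring it to transcripts that include Xist, and also take part in nuclear RNA export. In embryonic stem cells (ESCs) all 3 proteins have been followed as Xist partners.

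RNA was measured in female F1 hybrid 129/Sv x Cast/Ei mouse ESCs in which the Xist promoter of the Cast X chromosome responds to doxycycline. The 16 libraries fall into 8 groups of 2 biological replicates, namely Wt and Spen-/- cells untreated at day 0, treated with doxycycline at day 0, untreated at day 3 of monolayer differentiation and treated at day 7. Doxycycline was given at 2 µg/mL for 4 days before day 0 and during differentiation, and the treated cells were sorted for dsRed, so doxycycline and sorting cannot be told apart. In Spen-/- cells a pair of CRISPR guides at the 5′ and 3′ ends of the Spen open reading frame replaced it with a puromycin resistance cassette. Cells of all groups had been kept on male feeder cells, which were removed before differentiation by plating on uncoated plastic. Which Spen-/- clone each library came from is not given in the sources used here, so p-values measure only the spread between these libraries.

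Libraries held 7571566 to 14822867 reads on genes (median 9634648), of which 13.0% to 15.3% could be given to an allele. The 2 Spen-/- day 7 libraries stood apart. They held reads from 15324 and 14969 genes against 16952 to 23458 in the others, and their log2 counts correlated at r = 0.603 across genes, the lowest of the 8 groups, where the highest was 0.931. The 8 pluripotency markers fixed for this work were all detected in every library. Their summed level at day 7 was 2870 to 2964 CPM (reads scaled to a fixed library total) in Spen-/- and 335 to 485 CPM in Wt cells. Dppa5a alone gave 2129 and 1958 CPM of the Spen-/- sums, 6 of 8 markers were higher in both Spen-/- than in both Wt libraries, Tdgf1 overlapped and Pou5f1 was lower (29.7 and 19.8 against 52.9 and 48.1 CPM). The 6 markers of differentiated cells summed to 279 to 329 CPM in Wt cells at day 7, with all 6 detected. T alone gave 192 and 211 CPM of these Wt sums. In Spen-/- cells at day 7 the 6 markers summed to 9.65 to 9.77 CPM, with 2 of 6 detected in each library. T, Gata4 and Foxa2 were at 0 in both. In this setting 5 of 6 markers were lower in both Spen-/- than in both Wt libraries. Gata6 overlapped, at 5.79 and 4.42 CPM in Spen-/- against 5.72 and 4.26 CPM in Wt cells. Y-linked transcripts of feeder cells summed to at most 18.1 CPM at day 0 and at most 0.533 CPM at days 3 and 7. The 8 fibroblast markers summed to 16.6 to 153.7 CPM at day 0 and to 48.2 to 102.2 CPM in Spen-/- day 7 cells, where 4 of 8 were detected in each library. In such bulk RNA, fewer cells of a type and less RNA per cell cannot be told apart.

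The ends of the coding sequences of the 3 genes, which encode the end of the SPOC domain, were compared by the identity of their bases. No unrelated sequence was aligned for comparison, so the identities alone do not show a relation. The last 150 coding bases of the longest coding transcript of each gene in GENCODE M21 (GRCm38, stop codon included) are shown because they encode the end of the domain that defines the family and, for Spen, belong to the open reading frame removed in Spen-/- cells. Capitals in Rbm15 and Rbm15b mark the bases identical between these genes in a global alignment, and capitals in Spen mark the bases identical to Rbm15. The Spen stretch lies on the minus strand in 2 exons (chr4:141469383-141469400 and chr4:141468906-141469037), that of Rbm15 on the minus strand in 2 exons (chr3:107330215-107330341 and chr3:107326282-107326304) and that of Rbm15b on the minus strand in 1 exon (chr9:106884304-106884453).
Spen: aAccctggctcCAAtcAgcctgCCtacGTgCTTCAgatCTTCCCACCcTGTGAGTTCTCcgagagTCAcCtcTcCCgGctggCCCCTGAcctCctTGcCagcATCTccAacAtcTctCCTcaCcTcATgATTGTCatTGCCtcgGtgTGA
Rbm15: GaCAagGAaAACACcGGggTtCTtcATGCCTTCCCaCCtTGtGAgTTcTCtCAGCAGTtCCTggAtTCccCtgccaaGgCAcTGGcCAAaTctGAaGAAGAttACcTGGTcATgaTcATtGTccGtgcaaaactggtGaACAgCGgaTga
Rbm15b: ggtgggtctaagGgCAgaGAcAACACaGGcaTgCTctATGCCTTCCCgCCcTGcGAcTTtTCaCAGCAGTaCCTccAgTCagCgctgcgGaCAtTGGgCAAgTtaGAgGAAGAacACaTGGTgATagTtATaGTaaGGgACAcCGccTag
Over these ends 87 of 138 aligned bases (63.0%) were identical between Rbm15 and Rbm15b, 81 of 135 between Spen and Rbm15, and 71 of 143 (49.7%) between Spen and Rbm15b. Over the whole coding sequence Rbm15 and Rbm15b shared 62.4% of aligned bases. Over the last 540 coding bases Rbm15 and Rbm15b shared 63.3% of aligned bases, Spen and Rbm15 56.3%, and Spen and Rbm15b 54.9%. The coding sequence of Spen has 3643 codons, against 962 in Rbm15 and 887 in Rbm15b. At the read length of 50 bases none of the transcripts of 1 of these genes shared a stretch with those of the others. Of Rbm15b's 6510 stretches of 50 bases, 26 (0.399%) also occur in Dcaf1, of Spen's 14126 stretches 10 occur in some other gene, and of Rbm15's 7374 stretches none does.

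Spen (ENSMUSG00000040761, chr4:141467890-141538597, minus strand, 14089 exon bases), the deleted gene, was low in every Spen-/- library. At day 0 without doxycycline it stood at 43.5 and 23.5 CPM in the Wt replicates and at 1.28 and 5.45 CPM in the Spen-/- replicates. With doxycycline at day 0 the values were 20.1 and 31.7 CPM in Wt and 2.33 and 1.79 CPM in Spen-/- cells. Both Spen-/- libraries lay below both Wt libraries in each of these settings. At day 3 Wt libraries held 21.9 and 16.2 CPM and Spen-/- libraries 0.315 and 1.61 CPM. At day 7 the values were 36.6 and 27.7 CPM against 0.129 and 0.697 CPM. The genotypes thus did not overlap in any of the 4 settings, which held for 0.683% of the 18150 genes tested in this direction.

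The Spen-/- mean was 0.100 of the Wt mean at day 0 without doxycycline, 0.0794 with it, 0.0507 at day 3 and 0.0128 at day 7. Averaged over the settings Spen fell by 4.36 on the log2 scale in edgeR's quasi-likelihood test (SE 0.476, 95% interval -5.40 to -3.33, Benjamini-Hochberg adjusted p = 0.000618), where 4.91% of genes passed, 2.72% lower and 2.19% higher in Spen-/- cells. Averaged over the settings other than day 7, in the same fit of all 16 libraries, it fell by 3.75 (adjusted p = 0.0223), among 0.0937% of genes called. Set by set, only the day 7 difference passed over all genes (-6.22, adjusted p = 0.00416, 7.11% of genes called), since the other adjusted p-values were 0.984 at day 0 without doxycycline (0% called), 0.209 with it (0.0826% called) and 1 at day 3 (0% called). With the 4 day 7 libraries fitted alone the day 7 difference was -6.28 with an adjusted p of 0.0677, and 0 genes were called. In these settings with 0 calls, 828 genes at day 0 without doxycycline and 585 at day 3 had an unadjusted p under 0.05, and DESeq2 called 38 and 10, Spen among them (adjusted p = 0.0248 and 0.00134). The check of the labels is therefore carried by the reads themselves, 2466 in the Wt libraries and 112 in the Spen-/- libraries, or 4.54% as many. The counts per gene do not say where on Spen the remaining reads lie, and 22.4% of the gene's exon bases are outside the coding sequence used here.

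**Figure D1:**
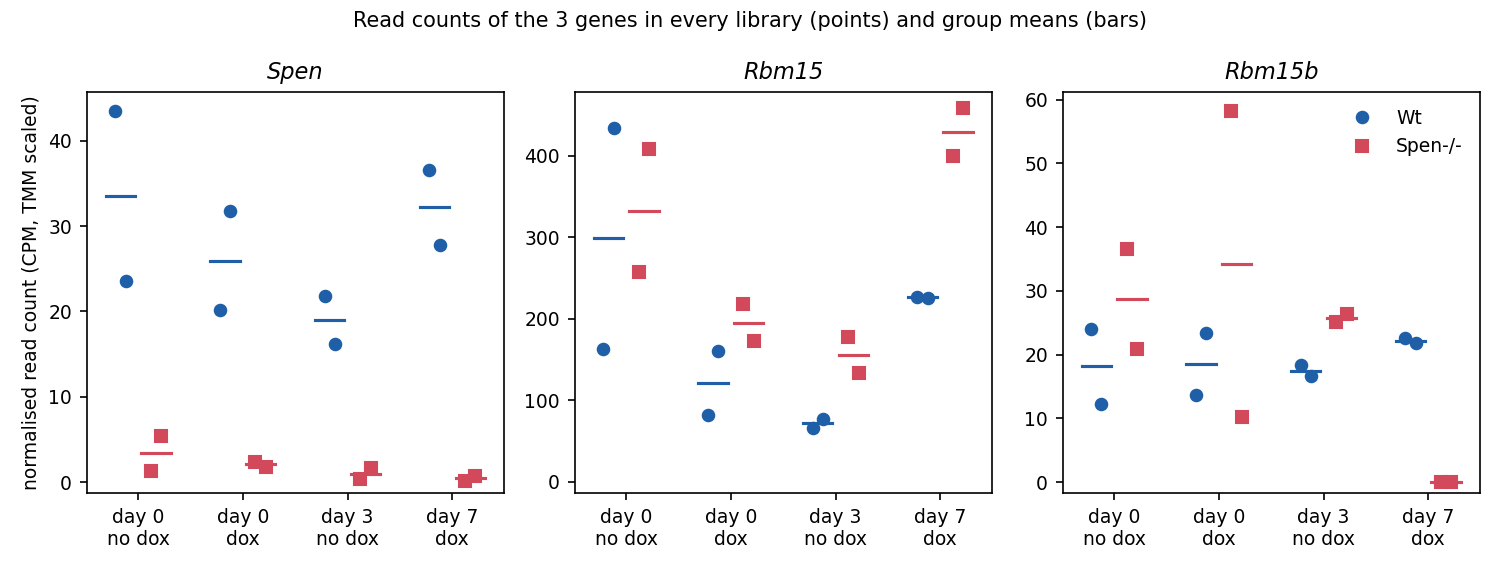
Normalised read counts (CPM with TMM scaling, y axis) of Spen, Rbm15 and Rbm15b by day and doxycycline (x axis), where each point is a library (blue circles Wt, red squares Spen-/-) and each bar a group mean. Spen was low in every Spen-/- library, Rbm15 was above Wt in both Spen-/- replicates of 3 settings, and Rbm15b had 0 reads in both Spen-/- day 7 libraries.

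Rbm15 (ENSMUSG00000048109, chr3:107325421-107333673, minus strand, 7423 exon bases), which bridges the methyltransferase complex to RNA, was the most abundant of the 3. Per kilobase of exon its median over the Wt libraries was 21.8 CPM (8.94 to 58.5), against 3.09 (1.89 to 3.68) for Rbm15b and 1.82 (1.15 to 3.09) for Spen. The Rbm15 range did not overlap the others, whereas the ranges of Rbm15b and Spen overlapped. In Spen-/- cells the medians per kilobase were 32.1 CPM for Rbm15, 3.53 for Rbm15b and 0.103 for Spen.

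At day 0 without doxycycline the Rbm15 level was 163.3 and 434.3 CPM in Wt and 257.6 and 408.0 CPM in Spen-/- cells. The Wt replicates enclosed the Spen-/- replicates in this setting. With doxycycline at day 0 it was 82.3 and 160.9 CPM in Wt and 218.5 and 172.6 CPM in Spen-/- cells. At day 3 it was 66.4 and 77.6 CPM in Wt and 177.8 and 133.1 CPM in Spen-/- cells. At day 7 it was 226.7 and 225.8 CPM in Wt and 399.95 and 458.6 CPM in Spen-/- cells. In these last 3 settings both Spen-/- libraries lay above both Wt libraries, which was the case in at least 3 of 4 settings for 5.38% of the genes tested.

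The Spen-/- mean of Rbm15 was 1.11, 1.61, 2.16 and 1.90 times the Wt mean in the order of the settings above. On the log2 scale the average difference was 0.72 (SE 0.210, 95% interval 0.26 to 1.18, edgeR), with an adjusted p of 0.0715 that missed the threshold of 0.05. Its unadjusted p of 0.00509 is to be read against 22.2% of all genes with an unadjusted p under 0.05 in this comparison. An exact two-sided permutation of the genotype labels within settings gave a mean difference of 0.76 in log2(CPM + 1) and p = 0.00772, where the smallest p that its 1296 arrangements allow is 0.00154. The call turned with the method, since Rbm15 passed with DESeq2 (0.72, adjusted p = 0.00810, 2268 genes called) and without the filter on low counts (0.71, adjusted p = 7.32e-05, 2397 genes called). The edgeR test with the filter called 891 genes. Without the filter every gene with a read was tested, so that count is no share of the 18150 genes. The Rbm15 difference was 0.92 without Wt day 0 no dox replicate 2, 0.84 without Wt day 0 dox replicate 2 and 0.78 without Spen-/- day 0 no dox replicate 1. With each of the other libraries left out it ranged from 0.58 to 0.76.

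By setting the Rbm15 difference was 0.16 (95% interval -0.75 to 1.07) at day 0 without doxycycline, 0.69 (-0.23 to 1.60) with it, 1.11 (0.19 to 2.04) at day 3 and 0.92 (0.01 to 1.84) at day 7, and the adjusted p in these settings was 1, 0.593, 1 and 0.209. The average over the settings other than day 7 was 0.65 (0.12 to 1.18, adjusted p = 0.339). None of these differences passed the test over all genes. The sum of the pluripotency markers differed between the genotypes at day 0 with doxycycline too, at 3407 to 4780 CPM in Wt and 6283 to 7134 CPM in Spen-/- cells. Of these sums Dppa5a gave 1240 and 2194 CPM and 3702 and 4421 CPM, 5 of 8 markers were higher in both Spen-/- libraries, and Pou5f1 was lower (342 and 388 against 459 and 390 CPM). At day 3 the pluripotency markers summed to 2673 to 2862 CPM in Wt and 2916 to 3081 CPM in Spen-/- cells. Of the 8 markers 3 were higher and 3 lower in both Spen-/- than in both Wt libraries at day 3. The part of these markers in the Rbm15 difference was not tested.

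**Figure D2:**
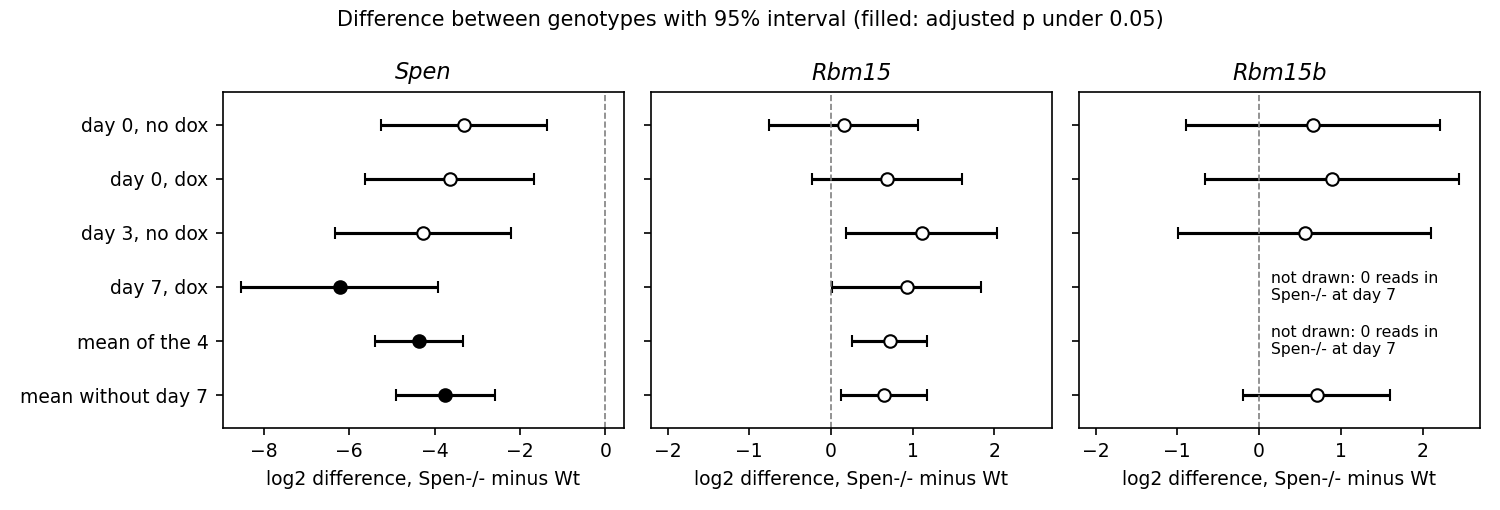
Log2 difference of Spen-/- minus Wt (x axis) with its 95% interval for each setting and for the means over settings (y axis), from edgeR's fit of all 16 libraries, with filled points where the adjusted p was under 0.05. Rbm15 lay at 0.16 to 1.11 with no filled point, and the values of Rbm15b that rest on its 0 reads at day 7 are not drawn.

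Rbm15b (ENSMUSG00000074102, chr9:106880918-106887428, minus strand, 6511 exon bases), the closer relative of Rbm15 with the same adaptor role, was level in Wt cells and absent from the counts of 1 Spen-/- group. At day 0 without doxycycline it stood at 24.0 and 12.3 CPM in Wt and 36.5 and 20.8 CPM in Spen-/- cells. With doxycycline at day 0 the values were 13.6 and 23.3 CPM in Wt and 58.3 and 10.3 CPM in Spen-/- cells. The genotypes overlapped in both day 0 settings, and the Spen-/- replicates with doxycycline lay on either side of the Wt pair.

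At day 3 Rbm15b stood at 18.4 and 16.6 CPM in Wt and 25.1 and 26.3 CPM in Spen-/- cells, so that both Spen-/- libraries were above both Wt libraries, as for 20.9% of genes in this setting. At day 7 it held 268 and 241 reads (22.6 and 21.8 CPM) in Wt libraries and 0 reads in both Spen-/- libraries, and 33.2% of genes had both Spen-/- libraries below both Wt libraries in this setting. Taking 3 reads per library as the floor that a count of 0 allows, the day 7 count was at least 57.6-fold lower in the Spen-/- libraries. This floor covers counting error only. Whether the zeros belong to the cells or to these libraries cannot be told from counts per gene. A count of 0 in both Spen-/- day 7 libraries was found for 19.1% of the genes tested, and together with reads in all 14 other libraries, as for Rbm15b, for 1.38%. Among the 4367 genes whose mean over the other 14 libraries lay between 11.8 and 47.1 CPM, around the 23.6 CPM of Rbm15b, it was found for 76 (1.74%), and with reads in all others for 1.21%. The share at 0 in both libraries of a group, taken the same way, was 0.14%, 0.0699%, 0.0701% and 0.469% in the Wt groups and 0.258%, 0.305% and 0.0927% in the other Spen-/- groups, each in the order of the settings.

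The day 7 difference of Rbm15b passed the test over all genes (adjusted p = 0.00109, edgeR, 4.01% of genes lower), and so did the difference between genotypes in the change from day 0 to day 7 with doxycycline (adjusted p = 0.00417, 2.01% of genes called, 1.09% lower). With the 4 day 7 libraries fitted alone the day 7 call was lost (adjusted p = 0.0677, and 0 genes called). In the 3 other settings the Rbm15b difference was 0.66 (-0.89 to 2.21), 0.89 (-0.66 to 2.45) and 0.56 (-0.99 to 2.10), with adjusted p of 1, 0.694 and 1. The average over all 4 settings was negative and passed (adjusted p = 0.0351), but this fitted value rests on the day 7 zeros. Without day 7 the average turned to 0.70 (-0.19 to 1.60, adjusted p = 0.534). The exact permutation test over all settings gave p = 0.307. With 1 library left out the average over 4 settings kept an adjusted p under 0.05 in 5 of 16 cases, namely without Wt day 0 no dox replicate 2, Spen-/- day 0 no dox replicate 1, either Spen-/- day 0 dox replicate or Spen-/- day 7 replicate 1, and had an adjusted p of up to 0.0868 in the 11 others.

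The genes that overlap Rbm15b held reads in the Spen-/- day 7 libraries. Rbm15b lies within the gene body of Manf, a secreted protein of the endoplasmic reticulum stress response on the same strand, and ends inside Dcaf1, a substrate receptor of a ubiquitin ligase on the opposite strand. Of the Rbm15b exon bases 14 (0.215%) also belong to Manf exons and 75 (1.15%) to Dcaf1 exons, and whether the counting used strand is not given in the sources used here. Manf stood at 247 and 310 CPM in the Spen-/- day 7 libraries and at 153 and 186 CPM in the Wt day 7 libraries. Dcaf1 stood at 55.2 and 53.4 CPM and at 59.3 and 37.7 CPM in the same groups. Of the 6 genes tested within 250000 bases of Rbm15b none passed in the genotype average, against 4.91% of all genes. At day 7 Rad54l2, a gene of this window that encodes a helicase-like protein, fell by 2.204 on the log2 scale (adjusted p = 0.0215, 4.76 and 4.88 CPM in Spen-/- against 29.5 and 15.0 CPM in Wt libraries), where 7.11% of genes passed. Grm2 and Dock3 were at 0 in both Spen-/- day 7 libraries too, and in the Wt day 7 libraries at 0 and 0 CPM for Grm2 and at 0.168 and 0 CPM for Dock3. The Spen-/- day 7 libraries also had the fewest genes detected, and 2 of 6 markers of differentiated cells in each. In the undifferentiated Spen-/- day 0 cells 2 of 6 such markers were detected in replicate 1 and 3 of 6 in replicate 2, without and with doxycycline. Rbm15b in these replicates stood at 36.5 and 20.8 CPM without doxycycline and at 58.3 and 10.3 CPM with it. The part of the markers or of the genes detected in the Rbm15b zeros was not tested.

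Across the course of the experiment the group mean of Rbm15 was lowest at day 3 in both genotypes. Rbm15 in Spen-/- cells overlapped between the day 3 libraries (177.8 and 133.1 CPM) and those at day 0 with doxycycline (218.5 and 172.6 CPM). From day 0 to day 3 without doxycycline, averaged over the genotypes, it fell by 1.58 on the log2 scale (95% interval -2.24 to -0.92, adjusted p = 0.0104), where 6.34% of genes passed and 3.48% were lower. This call was lost without Wt day 3 replicate 1 (-1.52, adjusted p = 0.0552) or Spen-/- day 3 replicate 2 (-1.48, adjusted p = 0.0535). From day 0 to day 7 with doxycycline it rose by 1.02 (0.37 to 1.67, adjusted p = 0.0408), where 14.4% of genes passed and 5.37% were higher. This call was kept without either Wt day 0 no dox replicate, either Spen-/- day 0 no dox replicate or Wt day 0 dox replicate 2, and was lost without each of the 11 other libraries, with differences of 0.82 to 1.09 and adjusted p of up to 0.143. In Wt cells alone the change to day 7 was 0.90 (adjusted p = 0.310, 4.57% of genes called) and in Spen-/- cells alone 1.14 (adjusted p = 0.127, 8.33% called).

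Between untreated and doxycycline-treated, sorted cells at day 0 the Rbm15 difference was -1.03 (-1.68 to -0.38, adjusted p = 0.210), in a comparison with 0.496% of genes called. It passed with DESeq2 (-1.03, adjusted p = 0.0198) and without the filter on low counts (-0.999, adjusted p = 0.000301). These alternatives called 588 and 626 genes in this comparison, against 90 in the edgeR test with the filter. Without Wt day 0 no dox replicate 1 the Rbm15 difference was -1.29. Rbm15b differed by 0.14 (-0.95 to 1.23) with doxycycline and by -0.11 (-1.20 to 0.99) from day 0 to day 3. In Wt cells alone its change from day 0 to day 7 was 0.27 (-1.28 to 1.81), so the level in Wt cells moved by less than its error. Spen itself in Wt cells differed by 0.31 (-1.45 to 2.07) between day 0 and day 7 with doxycycline.

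The genotypes were also compared in these changes. For Rbm15 the difference between genotypes was 0.53 (-0.76 to 1.82) in the doxycycline change, 0.95 (-0.34 to 2.25) in the change to day 3 and 0.24 (-1.05 to 1.53) in the change to day 7, none of which passed. The first 2 of these comparisons had 0 calls over all genes in edgeR (1058 and 622 genes with an unadjusted p under 0.05, and 65 and 2 calls with DESeq2). For Rbm15b the corresponding values were 0.23 (-1.95 to 2.42) and -0.10 (-2.29 to 2.08), and the change to day 7 was the exception given above.

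Allele-specific reads of the 3 genes were few. Spen had 326 such reads in the Wt libraries, of which 157 came from Cast, a share of 0.482 (95% Wilson interval 0.428 to 0.536). Intervals of shares cover counting error only. In the Spen-/- libraries 2 of the 112 Spen reads were allele-specific and both came from Cast, so that no comparison between alleles of the residual reads can be made. By setting the Wt share for Spen was 0.372 (0.273 to 0.483) at day 0 without doxycycline, 0.506 (0.402 to 0.610) with it, 0.483 (0.362 to 0.607) at day 3 and 0.544 (0.448 to 0.637) at day 7. The intervals of the 4 settings overlapped.

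Rbm15b, with 261 allele-specific reads in Wt and 191 in Spen-/- libraries, had a Cast share of 0.521 (0.461 to 0.581) and 0.508 (0.438 to 0.578). These shares are close, but the replicates behind them were not. In Spen-/- cells at day 0 without doxycycline 11 of 49 reads came from Cast in replicate 1 (0.224, 0.130 to 0.359) and 16 of 16 in replicate 2 (0 of 16 from 129, which allows a share of up to 0.188). Over all genes the Cast percentage of allele-specific reads was 46.4 and 45.1 in the same 2 libraries. With both replicates summed, the other groups with reads had Rbm15b shares of 0.467 to 0.632. Their replicates also varied, at day 3 with 0.652 and 0.370 in Wt and 0.595 and 0.333 in Spen-/- cells. At day 7 the Wt replicates were closer, at 0.621 and 0.529.

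Rbm15, despite 33375 reads in all, had 244 allele-specific reads, 0.731% of its total against a median of 14.7% over the genes tested, and 9.04% of genes had a lower percentage. For Spen the percentage was 12.7 and for Rbm15b 13.99. The Cast share of Rbm15 was 0.535 (0.453 to 0.614, 144 reads) in Wt and 0.630 (0.532 to 0.718, 100 reads) in Spen-/- cells, with overlapping intervals. In single groups it ran from 0.370 (0.254 to 0.504, 54 reads) in Wt cells at day 0 without doxycycline to 0.875 (0.640 to 0.965, 16 reads) in Spen-/- cells at day 0 with it, where 7 of 7 reads of replicate 1 came from Cast. The Wt share at day 7 (0.703, 0.542 to 0.825, 37 reads) also lay above that at day 0 without doxycycline, with intervals that did not overlap.

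The allelic test required over 20 reads with an allele in each of the 8 groups, which none of the 3 genes reached. That test covered 6442 genes, of which 1.40% passed for a genotype difference in the allelic balance and 35.9% for a difference between Cast and 129. With a minimum of more than 10 reads Rbm15 alone entered, with a genotype difference of 0.49 in log2(Cast/129) (-1.19 to 2.18, adjusted p = 0.935, 7684 genes tested and 1.12% called) and a Cast excess of 0.63 over all groups (-0.21 to 1.47, adjusted p = 0.248, 33.6% called).

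**Figure D3:**
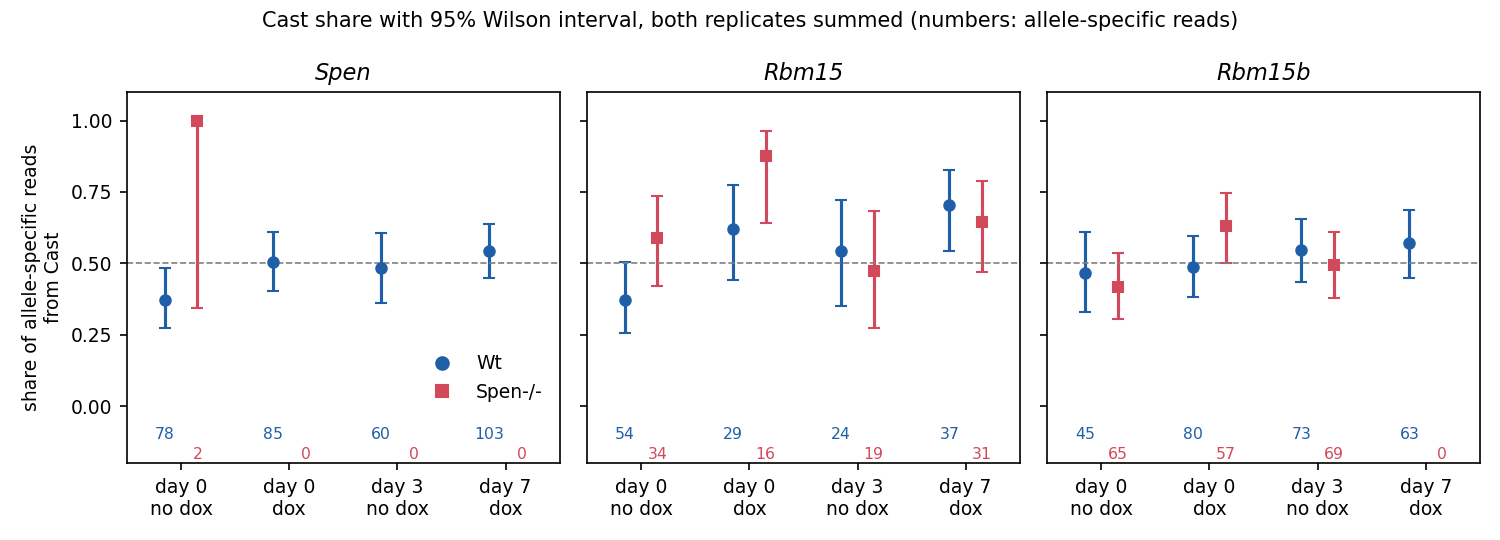
Share of allele-specific reads from Cast (y axis) with its 95% Wilson interval for each gene by day and doxycycline (x axis), both replicates of a group summed, Wt in blue circles and Spen-/- in red squares, with the number of allele-specific reads under each point. Wt shares of Spen lay at 0.372 to 0.544, and the Spen-/- groups had 0 to 2 such reads.

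Genes that act with the SPOC-domain proteins were followed in lists. In the genotype average none of the 32 listed genes tested passed, against 4.91% of all genes, and the median difference over all genes was -0.15. Among the other genes with a SPOC domain, Dido1, a chromatin reader, differed by -0.22 (adjusted p = 0.659) and Phf3, which binds RNA polymerase II, by 0.18 (adjusted p = 0.703), and Spocd1 did not pass the filter on low counts. The 6 genes of the m6A methyltransferase complex had a median difference of 0.17, with 5 of 6 above 0. Of these Wtap, the regulatory subunit that anchors the complex, differed by 0.65 (adjusted p = 0.139), Mettl14, the partner of the catalytic subunit, by -0.36 (adjusted p = 0.311) and Zc3h13 by 0.16 (adjusted p = 0.561). The Mettl14 value rests on day 7, where the difference was -1.41 (adjusted p = 0.0538, edgeR), and the average without day 7 was -0.007. Among the 7 m6A readers and erasers the median was 0.14, with 4 above 0, and the smallest p-values belonged to the reader Ythdf1 (0.53, adjusted p = 0.110), the demethylase Fto (-0.51, adjusted p = 0.138) and the reader Ythdf2 (0.14, adjusted p = 0.428).

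The 9 partners of SPEN or RBM15 proteins had a median of 0.03, with 5 above 0. Tbl1x, a subunit of the NCoR/SMRT corepressor, differed by 0.41 (adjusted p = 0.0773), Hdac3, its deacetylase, by -0.46 (adjusted p = 0.113) and Nxf1, the mRNA export receptor, by -0.24 (adjusted p = 0.139). By setting, Tbl1x differed by 0.83 at day 0 with doxycycline and by 0.14 to 0.36 in the others. The part of X chromosome silencing in the Tbl1x difference was not tested. At day 7 Hdac3 fell by 1.32 (adjusted p = 0.0290), the 1 listed gene that passed in any setting, where 7.11% of genes passed. The Spen-/- libraries behind this call are those that stood apart, and with the 4 day 7 libraries fitted alone no gene was called. The 8 other Xist RNA binding proteins had a median of -0.11, with 3 above 0, and the smallest p-values belonged to Ptbp1 (-0.42, adjusted p = 0.235), Hnrnpu (0.43, adjusted p = 0.240) and Lbr (-0.30, adjusted p = 0.304).

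**Figure D4:**
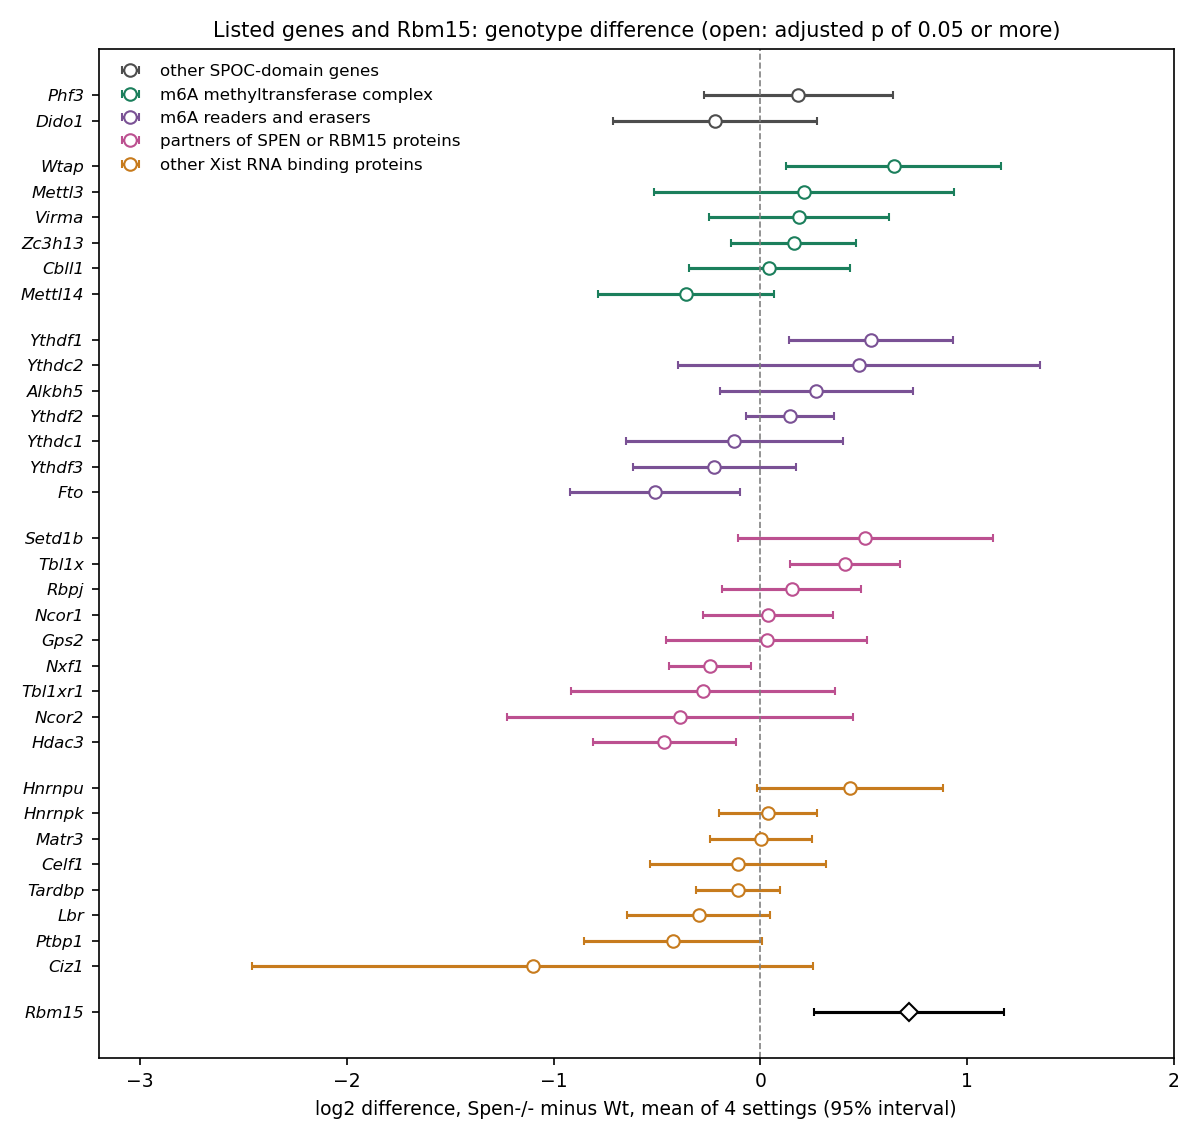
Log2 difference of Spen-/- minus Wt averaged over the 4 settings (x axis) with its 95% interval for 32 listed genes and Rbm15 (y axis, coloured by list). No gene shown passed the adjusted threshold of 0.05, with Rbm15 at 0.72 and the list medians between -0.11 and 0.17.

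Genes near the deletion were examined as well. Of the 16 genes tested within 250000 bases of Spen 2 passed in the genotype average, against 4.91% of all genes. Neither passed in the average without day 7. Of these Srarp, a steroid receptor associated gene 31.8 kb downstream of Spen on the same strand, was at 0 to 0.0869 CPM in Wt libraries and at 0.105 to 5.27 CPM in Spen-/- libraries (adjusted p = 0.00580 in edgeR, and 0.123 without day 7). Both genotypes were thus low for this gene. Zbtb17, which shares 41 exon bases (0.291%) with the 3′ end of Spen on the opposite strand, differed by 0.68 (adjusted p = 0.179). Of the 4 genes tested around Rbm15, Lamtor5, a subunit of the Ragulator complex of the lysosome, rose by 0.59 (adjusted p = 0.0306), and without day 7 its adjusted p was 0.141.

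The genes whose level followed each member most closely were taken from 11030 genes, by Pearson's r of log2(CPM + 1) over the 16 libraries, which share their groups and depth. For Rbm15 these were Sdc4 (r = 0.981, Spearman's rho = 0.944), Birc6 (0.978, 0.953), Rdh13 (0.966, 0.918), Yipf4 (0.964, 0.929) and Gnb1 (0.963, 0.912). Without the 2 libraries farthest from the median of Rbm15, both Wt day 3, r was 0.940 to 0.981, and within a genotype (n = 8 libraries) it was 0.968 to 0.990 in Wt and 0.922 to 0.974 in Spen-/- cells. For Rbm15b they were Mogs (0.936, 0.667), Xkr8 (0.935, 0.546), Ago1 (0.932, 0.843), Arrdc4 (0.930, 0.508) and Rnf219 (0.920, 0.440). Without the 2 Spen-/- day 7 libraries, at 0 for Rbm15b, r was 0.624, 0.449, 0.783, 0.229 and 0.130 in the same order, and within Wt cells it was 0.828, 0.105, 0.771, 0.559 and -0.310.

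The Spen levels formed separate clusters by genotype, so they are given within genotypes. Among the 5 genes nearest to Spen over all libraries, Tle3 had r = 0.645 within Wt and 0.848 within Spen-/- cells, and Hif3a, Snd1 and Kif24 had 0.0645 to 0.455 and 0.128 to 0.557. Among the members r within Wt cells was 0.485 for Spen and Rbm15, 0.734 for Spen and Rbm15b and 0.0161 for Rbm15 and Rbm15b. Within Spen-/- cells it was -0.0152, 0.545 and -0.643 for the same pairs, and the last 2 values include the day 7 libraries in which Rbm15b was at 0.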

How the data were processed

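RNA-seq libraries (Smart-seq2, single-end reads of 50 bases) of 16 samples in 8 groups of 2 were analysed. The deposited values are raw read counts per gene, which the authors made by aligning reads to mm10 with HISAT2 2.2.1, sorting them with SAMtools 1.10, splitting them by allele with SNPsplit and counting them with HTSeq 0.12.4 in an Ensembl annotation. Each library has a count of 129, Cast and unassigned reads per gene, and these were summed to the total count. Reads on no gene (31.6% to 45.4% of a library) were left out.

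Total counts were tested with edgeR 4.0.16 (R 4.3.3, limma 3.58.1) in 1 quasi-likelihood fit of all 16 libraries with TMM scaling and 1 term per group, after filterByExpr (minimum count 10, minimum total 15). P-values were adjusted over all 18150 genes (Benjamini-Hochberg, threshold 0.05). Allelic tests used the 129 and Cast counts as paired observations of a library, for genes over a minimum of 20 reads with an allele in every group. Exact permutations used log2(CPM + 1). Shares have 95% Wilson intervals, and a count of 0 was given a floor of 3 reads. Gene positions came from GENCODE M21, which matched 55240 of the 55421 genes, and 181 did not match. Values were tabulated in pandas 2.3.3 and numpy 2.4.6 (Python 3.11.15), and shares used scipy 1.17.1 and plots matplotlib 3.10.9. The edgeR test of the genotype average in total counts was tested on simulated data.

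The members, gene lists, markers and tests were chosen with earlier results of these data known. Of a list, every gene that passed in the genotype average was to be named, or else at most 3 by smallest p. Hdac3 and Rad54l2 at day 7 were named after their values were seen. Neighbours were genes within 250000 bases of a member, named by their results, and likeness used genes with a mean count of at least 50. Alternatives were DESeq2 1.42.0, RLE size factors, no filter, the compared libraries alone, a replicate block, each library left out, other pseudocounts (0.1 and 5), other allelic minimums (10 and 50) and library sizes per allele. Leaving out day 7 and splitting the day 7 change by genotype were chosen after seeing the data. Averages without day 7 came from the fit of all 16 libraries, except where a separate fit is named. Some genes that these rules name are not reported here. Proteins and guide sequences were not used here.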

Additional observations from a re-analysis of the deposited data

Results flagged for a closer look

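The change of Rbm15b from day 0 to day 7 with doxycycline differed between the genotypes by a fitted -11.68 on the log2 scale in the test of the difference itself (edgeR interaction term, adjusted p = 0.00417). Both Spen-/- day 7 libraries held 0 reads of the gene, so the fitted size depends on the prior count and is no bound. Both Wt replicates at day 7 held 268 and 241 reads.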

How the results depend on the processing

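Of 946 values recomputed for 49 results, 801 kept their direction and their side of the threshold or, for a count of genes called, stayed within 1.5 times. RLE size factors, other pseudocounts, other allelic minimums and library sizes per allele changed none of the values they were applied to. The causes of the changes below were not tested.

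Without the filter on low counts the genes called numbered 2397 in the genotype average, 17, 385, 23 and 2521 at day 0 without and with doxycycline, day 3 and day 7, 626 for doxycycline, 2396 for day 3 against day 0, and 83, 13 and 1002 for the genotype differences in the changes with doxycycline, to day 3 and to day 7. Results that then passed were Rbm15 in the genotype average (0.71), at day 7 (0.88) and with doxycycline (-0.999), and Spen at day 0 with doxycycline (-3.66) and at day 3 (-4.27). With DESeq2 the counts were 2268, 38, 446, 10, 2883, 588 and 2429 in the same order, 4091 for day 7 against day 0, and 65, 2 and 1139 for the genotype differences, and Rbm15 in the genotype average (0.72) and with doxycycline (-1.03) and Spen at day 0 without (-3.31) and with doxycycline (-3.67) and at day 3 (-4.31) passed.

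With the compared libraries fitted alone 0 genes were called at day 0 with doxycycline and at day 7, where Spen (-6.28) and Rbm15b (-10.79) no longer passed. In a separate fit without day 7, chosen after seeing the data, 18 genes were called and Rbm15b turned to 0.71.

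Whether same-numbered replicates of different groups share more than a number is not given in the sources used here. The deviations of these replicates correlated at a median of 0.03 over 28 pairs of groups (-0.15 to 0.30, 7 over 0.1). The highest values were between day 0 groups, 0.296 for the Wt groups and 0.216 for the untreated groups. With the replicate block 923 genes were called in the genotype average, Rbm15 stood at 0.75 (adjusted p = 0.0512), the Rbm15b difference in the doxycycline change turned to -0.017 and 1467 genes were called for Cast against 129. The block changed no other call.

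With 1 library left out at a time Rbm15 ranged from 0.58 to 0.92 in the genotype average, -0.38 to 1.01 at day 0 without doxycycline, -1.29 to -0.60 with doxycycline, -1.84 to -1.14 to day 3 and 0.82 to 1.26 to day 7, and its genotype differences in change from -0.34 to 1.05 with doxycycline and -0.28 to 0.64 to day 7. Rbm15b ranged from -2.62 to -1.99, -0.86 to 1.64 at day 0 with doxycycline, -0.73 to 0.53 with doxycycline, -0.31 to 0.18 to day 3, and -1.51 to 0.99 and -0.68 to 0.36 for the genotype differences with doxycycline and to day 3. Spen ranged from -0.88 to 0.16 with doxycycline, and -1.04 to 1.04 and -2.54 to 0.43 for the same genotype differences. Genes called ranged from 331 to 1570 in the genotype average, 0 to 2, 2 to 28 and 541 to 1694 at day 0 without and with doxycycline and at day 7, 31 to 291 for doxycycline, 412 to 1617 to day 3, 1354 to 3000 to day 7, 0 to 2 and 143 to 766 for the genotype differences with doxycycline and to day 7, and 55 to 234 for the allelic genotype difference. A member had at most 103 allele-specific reads in a group, which limits the allelic values.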
